A study of Drosophila melanogaster with 16 samples.

Results

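Wg++ naïve embryos, in which Wingless (Wg) was expressed throughout, were compared with the non-expressing naïve embryos that served as WT. Naïve embryos come from mothers that are homozygous for maternal-effect mutations in bicoid, nanos and torsolike (bcdE1, nosL7, tsl146) and also carry da-Gal4, a driver active in all cells. The embryos thus lack anterior, posterior and terminal patterning, and by the account of the study they form an unpatterned epithelium that does not gastrulate. For Wg++ these mothers were crossed to UAS-Wg males, and for arm∆N, used below for comparison, to males carrying an Armadillo without its N-terminal region, a form of β-catenin that escapes degradation. WT embryos are therefore not wild type in genotype: they share the maternal mutations and the driver, and the father of these embryos is not given. RNA of about 50 embryos aged 4 to 16 h was hybridised to each Affymetrix Drosophila 2 array, with 2 biological replicates per genotype. Of the 16 arrays of 8 genotypes, 4 belong to this comparison and 2 more to arm∆N. Genes were included where a probeset maps to 1 gene. This gave 11896 genes, of which 8863 exceeded a log2 intensity of 2.5 on at least 2 arrays and were tested, while 3033 did not. The label held in the data. wg measured 10.15 and 10.04 on the Wg++ arrays and 6.43 and 6.40 on the WT arrays (log2 intensity), and the 12 arrays of the other genotypes lay between 5.11 and 7.26.

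Wg is the founding fly Wnt ligand. It is lipid-modified, carried to the cell surface by Wntless and bound by Frizzled and Arrow receptors. Without ligand, a complex of Axin, APC, CK1 and the GSK3 homologue Shaggy marks Armadillo for destruction, and TCF (pangolin, pan) with Groucho holds target genes off. With ligand, Armadillo accumulates and turns TCF into an activator. In the patterned embryo Wg specifies naked cuticle between the belts of denticles, sustains engrailed and hedgehog expression in the neighbouring cells, and acts in the midgut, heart, tracheae and nervous system.

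A gene is called where the absolute fold change is above 1.5 and the false discovery rate (FDR), adjusted over all genes tested, is under 10%, in a limma fit over all 16 arrays. By this rule 1666 genes were higher in Wg++, which is 18.8% of the genes tested, and 1954 were lower, which is 22.0%. Together these are 40.8%, so a count for a gene list is read against 18.8% and 22.0%. Beyond a log2 difference of 2, 209 genes were higher and 246 lower. At a cut of 4 the changes ran mainly downward, with 46 genes below -4 and 8 above 4. Of the genes called lower, 219 had a Wg++ mean under 3, near the lowest value of the arrays (2.289), and 72 of those called higher had a WT mean under 3, so that their differences are lower bounds. The median difference of all genes was -0.11. The replicates of Wg++ (median SD 0.137) lay closer together than those of WT (0.235), with Pearson correlations across genes of 0.984 and 0.959, and arrays of different genotype correlated at 0.865 to 0.897. The 2 Wg++ arrays did not overlap the 2 WT arrays for 3615 of the 3620 called genes. The calls rest on these same arrays, so this count follows largely from the calls and adds no support. The share over all genes tested was not counted. Without Wg++ replicate 1, 1154 genes were higher and 1226 lower. In the lists below, where limma called no member in a direction, no member reached an unadjusted p under 0.05 in that direction either, apart from 1 haemocyte gene and 1 cytosolic ribosomal protein gene. Values come from whole embryos, where fewer cells of a type and less RNA per cell cannot be told apart.

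**Figure D1:**
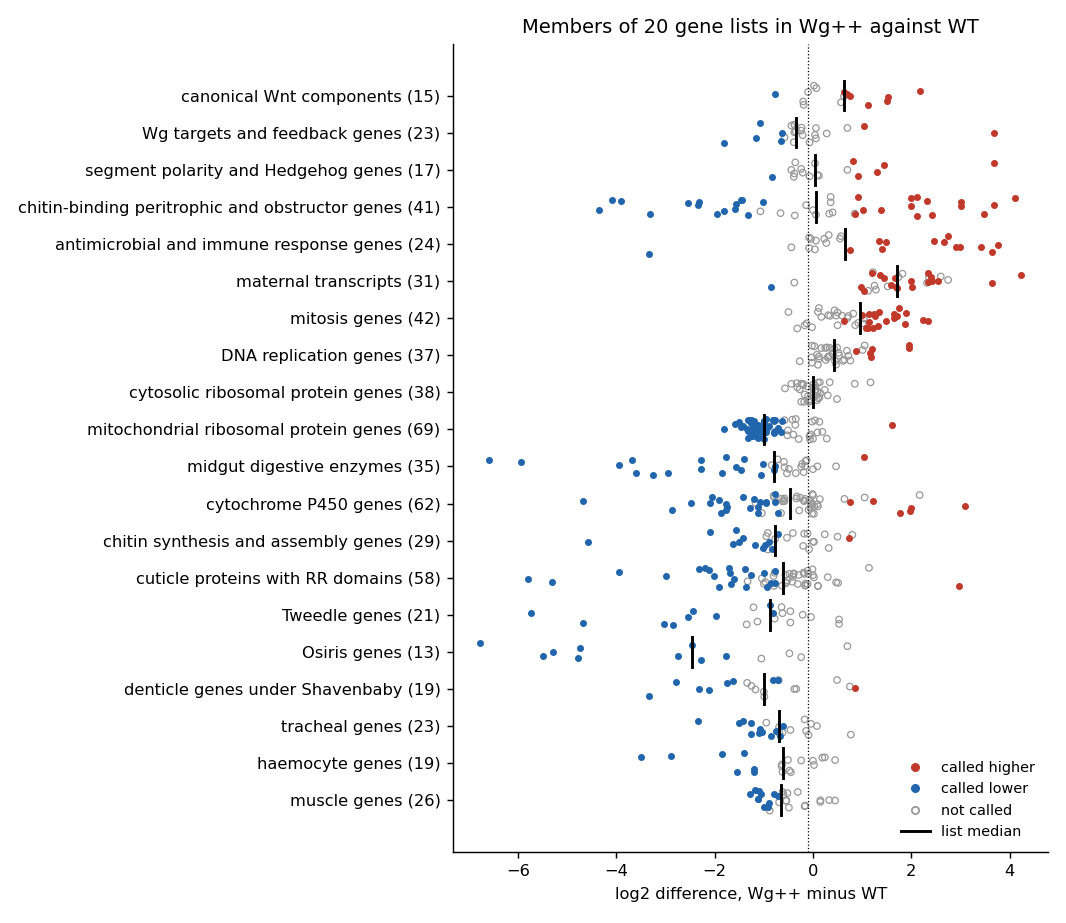
Log2 difference between the means of the 2 Wg++ and the 2 WT arrays for each tested member of 20 gene lists (number tested in brackets), with filled points for called genes, a black bar for the list median and a dotted line at the median of all genes, -0.11. Maternal transcripts and mitosis genes lie mostly to the right, Osiris and mitochondrial ribosomal protein genes mostly to the left, and the chitin-binding genes on both sides.

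The primer list of the study for quantitative PCR after chromatin immunoprecipitation of tagged TCF holds pairs for promoters of 27 genes. All 27 were called higher in Wg++, with a median difference of 2.32, but the study chose genes for this assay by their expression on these arrays, so this count describes the choice and supports nothing further. For genes described among the risen ones below, 4 pairs are shown with wg, all 5′ to 3′, in lower case with no part singled out. The study names the promoters of CG13806 and CG7252 as bound by a shortened form of TCF, and neither is among those shown. A pair printed here thus does not mark a promoter that the study names as bound. Their sequences come from that supplementary list.
Mco4 (X) forward: tgttcttcccgtgccttgtc
Mco4 (X) reverse: tggctgagggccaaatgtta
obst-G (3L) forward: gcttacccgctaaagaaggc
obst-G (3L) reverse: agacatccaatcgaccacttt
CG10140 (3L) forward: cctccgagcgatgagctgtg
CG10140 (3L) reverse: attttcgttttcggcacatcgt
CG10725 (3L) forward: cacggaatcaaaacaaatcgca
CG10725 (3L) reverse: tacctcgaaaaacccctcca
wg (2L) forward: cgcagagtcggacgaaagaa
wg (2L) reverse: tttcgagcggaggagtgaag

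Wg++ embryos had more RNA of the transgene's gene and of several proteins that handle the signal. wg (arm 2L) stood 3.68 above WT (SE 0.29, adjusted p = 6.58e-05), and the array does not tell RNA of the transgene from that of the gene itself. Of 15 canonical pathway genes tested, 7 were higher and 1 lower, with a median of 0.63. wls, which encodes the Wntless carrier that brings Wg to the cell surface, measured 9.31 and 9.30 in Wg++ against 6.71 and 7.55 in WT, a rise of 2.18 (SE 0.42, adjusted p = 0.00336). The casein kinase 1 genes gish and CkIalpha rose by 1.52 (SE 0.32, adjusted p = 0.00497) and 1.11 (SE 0.28, adjusted p = 0.0118). nej, the CBP co-activator, rose by 1.51 (SE 0.47, adjusted p = 0.0282). Axn, the scaffold of the destruction complex, measured 9.09 and 9.12 against 8.25 and 8.45, a smaller rise of 0.75 (adjusted p = 0.0483). The member that fell was ebd1, whose product assists Armadillo and TCF, by 0.77 (SE 0.28, adjusted p = 0.0493). pan itself differed by 0.63 (SE 0.31, adjusted p = 0.14) and the glypican gene dlp by 0.57, neither of them called. nej, Axn, ebd1 and the CK1 gene dco (0.70, and 0.43 without WT replicate 1) lost their calls without WT replicate 1 and without Wg++ replicate 2, Axn also without Wg++ replicate 1, and the higher genes numbered 4 without either of the first 2 arrays. arm, arr, dsh, fz, fz2 and sgg were not analysed here.

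The genes listed here as targets and feedback genes of Wg did not rise as a group. Of 23 tested, 2 were higher (8.7%), wg itself and Notum, and 5 were lower (21.7%), with a median of -0.35. The lower share was near the 22.0% of all genes. Notum, a secreted enzyme that strips the lipid from Wnt ligands, measured 4.60 and 4.72 in Wg++ and 3.46 and 3.78 in WT, a rise of 1.04 (SE 0.24, adjusted p = 0.00799). The receptor gene fz3 measured 5.97 and 6.56 against 5.85 and 6.11, and nkd, a feedback inhibitor, 7.28 and 7.46 against 7.42 and 7.74. The arrays of the 2 genotypes overlapped for both of these genes, and neither was called. The study describes both as activated in Wg++ and arm∆N, from log2 fold changes against WT for which it names no threshold. On average fz3 lay above WT in Wg++, the direction that the study gives, and nkd lay below WT. The fz3 values of arm∆N are given below. The segment polarity gene en, which Wg sustains, differed by -0.39 (SE 0.24, adjusted p = 0.245). drl, a receptor of the Ryk family that serves Wnt5, measured 7.26 and 7.39 against 8.87 and 9.38, a fall of 1.81 (SE 0.20, adjusted p = 0.000423). The transcription factor genes vg, dac, tsh and lbl fell by 1.08 (to near the lowest value), 1.16, 0.66 and 0.64, with adjusted p between 0.00382 and 0.0427. dac and tsh lost their calls without WT replicate 2 and without Wg++ replicate 1, where tsh differed by -0.39, lbl without WT replicate 1, and the other probeset of vg differed by -0.24. The count of lower genes was 3 without WT replicate 2, without Wg++ replicate 1 and with cyclic loess scaling.

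Several genes of the Hedgehog pathway, which acts beside Wg at each segment border, were higher in Wg++. Of 17 segment polarity genes, 5 were higher, wg among them, and 1 was lower, with a median of 0.04. disp, which frees lipid-modified Hedgehog from the cells that make it, measured 8.05 and 8.19 in Wg++ and 6.91 and 6.45 in WT, a rise of 1.44 (SE 0.25, adjusted p = 0.00218). cos, a kinesin-like scaffold that restrains the transcription factor Ci, measured 9.71 and 9.65 against 8.35 and 8.41, a rise of 1.30 (SE 0.26, adjusted p = 0.00403). Su(fu), a second restraint on Ci, rose by 0.81 (adjusted p = 0.0347), and the transducer gene smo by 0.92 (adjusted p = 0.0752). ci itself fell by 0.84 (SE 0.21, adjusted p = 0.0102), and ptc, the receptor gene that Hedgehog induces, measured 3.55 and 3.46 against 3.04 and 3.74 and was not called. smo lost its call without any of the 4 arrays, and Su(fu) without each of them except WT replicate 1. The count of higher genes was 3 without WT replicate 2 or either Wg++ array.

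The strongest rises were those of an oxidase gene that WT embryos hardly expressed and of genes with no role annotated here. Mco4, a multicopper oxidase, measured 8.15 and 8.01 in Wg++ against 2.86 and 2.95 in WT, at least 5.17 higher on the log2 scale (SE 0.27, adjusted p = 1.03e-05). Its relative Mco1, already expressed in WT, measured 7.14 and 7.27 against 4.98 and 4.92, a rise of 2.25 (SE 0.31, adjusted p = 0.000944). CG4367 went from 2.48 and 2.40 in WT to 7.23 and 6.59 in Wg++ (at least 4.47, SE 0.41, adjusted p = 0.000155). WT arrays thus sat near the lowest value for Mco4 and CG4367 but not for Mco1. CG13460 measured 8.34 and 8.75 against 3.25 and 3.26 (5.29, SE 0.59, adjusted p = 0.000426). CG12506, CG13946 and CG13947, which neighbour each other on arm 2L, rose by 5.11 (SE 0.71), 4.27 (SE 0.83) and 5.25 (SE 0.73), and their WT arrays lay between 4.46 and 6.66. No role is annotated here for these 5 genes.

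**Figure D2:**
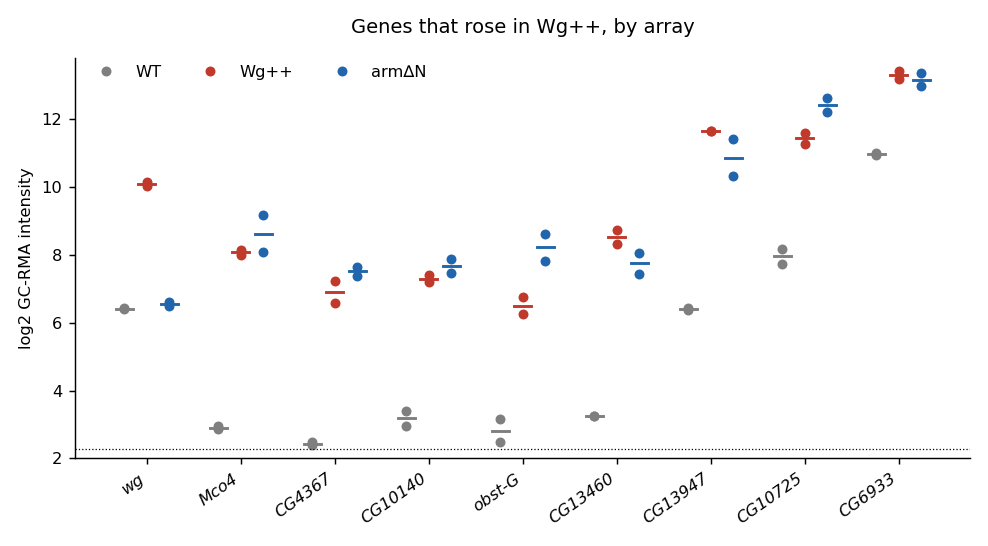
Log2 GC-RMA intensity on each of the 2 arrays of WT, Wg++ and arm∆N for 9 genes that rose in Wg++ (points for arrays, bars for means, dotted line at the lowest value, 2.289). Wg++ arrays stand above both WT arrays for each gene, and arm∆N arrays stand well above WT for each gene but wg.

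Chitin-binding genes, whose products line the gut as peritrophic matrix or build the cuticle, split evenly. Of 41 tested, 15 were higher and 15 lower, 36.6% each, and the median was 0.06. Among those that rose, CG10140 measured 7.40 and 7.20 in Wg++ against 2.97 and 3.41 in WT (4.12, SE 0.25, adjusted p = 2.12e-05). obst-G, of the obstructor family that organises chitin, measured 6.75 and 6.25 against 3.15 and 2.49, so that its rise of 3.68 (SE 0.28, adjusted p = 6.37e-05) is a lower bound. CG10725 measured 11.60 and 11.28 against 7.74 and 8.19 (3.48, SE 0.59, adjusted p = 0.00203). These genes started from very different levels, and obst-J, CG7298, CG7714 and CG6933 rose by 3.01, 3.01, 2.42 and 2.32 from WT means that were already high, with adjusted p between 0.000652 and 0.0038. On the other side, the mucin gene Muc18B measured 2.62 and 2.47 in Wg++ against 7.37 and 6.43 in WT, at least 4.36 lower (SE 0.57, adjusted p = 0.000775). CG7290 lay at 2.30 and 2.29 against 6.67 and 6.08, at least 4.08 lower (SE 0.66, adjusted p = 0.00172). Mur18B, a mucin-related gene, fell by at least 3.91 (SE 0.49, adjusted p = 0.000655), and Gasp, a chitin-binding protein of the tracheal and epidermal cuticle, from 10.22 and 10.52 to 8.03 and 8.04 (SE 0.35, adjusted p = 0.00137). The summed intensity of the 41 genes was 25960 to 29760 in Wg++ and 10340 to 11080 in WT.

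In the families of cuticle formation described next, more genes were called lower in Wg++ than higher, but only among the Osiris genes, a clustered family expressed in epithelia that lay down cuticle, did the lower genes outnumber those not called. Of 13 Osiris genes tested, 9 were lower and none higher, with a median of -2.46. Osi20 measured 3.06 and 3.12 in Wg++ and 9.74 and 9.98 in WT, a fall of 6.77 (SE 0.52, adjusted p = 6.37e-05) that was the largest difference measured, though the falls of genes near the lowest value in Wg++ are lower bounds and have no rank. Osi15 fell from 10.14 and 10.90 to 5.38 and 4.68 (SE 0.44, adjusted p = 6.58e-05). Osi19 and Osi18 ended near the lowest value, at least 5.28 and 4.78 below WT. Osi2 measured 6.64 and 8.24 against 5.96 and 7.53 and was not called. A further 11 members did not pass the filter on low values.

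Of 58 cuticle proteins with the chitin-binding RR domain, 21 were lower and 1 was higher, with a median of -0.60. Cpr64Ad measured 4.29 and 5.72 in Wg++ against 10.64 and 10.95 in WT, a fall of 5.79 (SE 0.52, adjusted p = 0.000145), and Ccp84Ae 3.44 and 4.73 against 8.86 and 9.91, a fall of 5.31 (SE 0.64, adjusted p = 0.000618). The exception was Cpr47Eb, at 8.28 and 8.13 against 5.80 and 4.64, a rise of 2.98 (SE 0.67, adjusted p = 0.00649). Lcp65Ag3, a larval cuticle protein, measured 12.73 and 12.58 against 12.54 and 12.74 and was not called. Of 21 Tweedle genes, whose products also sit in the cuticle, 9 were lower and none higher, with a median of -0.87. Twdlbeta fell by 4.67 (SE 0.87), TwdlT by 3.03 (SE 0.62) and TwdlG by 2.55 (SE 0.51), while TwdlN and TwdlB, among the most intense of the family, differed by -0.04 and -0.46 and were not called. Wg++ replicate 2 lay above replicate 1 for several of these genes. Without replicate 1 of Wg++, 10 RR genes and 5 Tweedle genes were lower, and the Tweedle median moved between -1.5 and -0.52 as 1 array was left out, whereas 8 to 10 Osiris genes were lower in each alternative run.

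The enzymes that make and arrange chitin followed, with 12 of 29 lower and 1 higher (median -0.77). The chitinase gene Cht5 measured 4.15 and 3.14 in Wg++ against 8.50 and 7.95 in WT, a fall of 4.58 (SE 0.48, adjusted p = 0.000309). Cht10 fell by 2.09 (SE 0.26, adjusted p = 0.000652). knk, which protects and orders chitin fibres, fell by 1.57 (SE 0.27, adjusted p = 0.00203), and the chitin deacetylase genes serp and Cda4 by 1.42 and 1.62. amd, an enzyme gene of cuticle tanning, fell by 2.35 (SE 0.41, adjusted p = 0.00217). Without Wg++ replicate 1 the chitin enzymes called lower numbered 7. Of 20 other cuticle and tanning genes, 3 were higher, Mco1 and Mco4 among them, and 7 lower, and the lower count was 2 without Wg++ replicate 1, 3 without WT replicate 1 and 4 at an FDR under 5%.

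**Figure D3:**
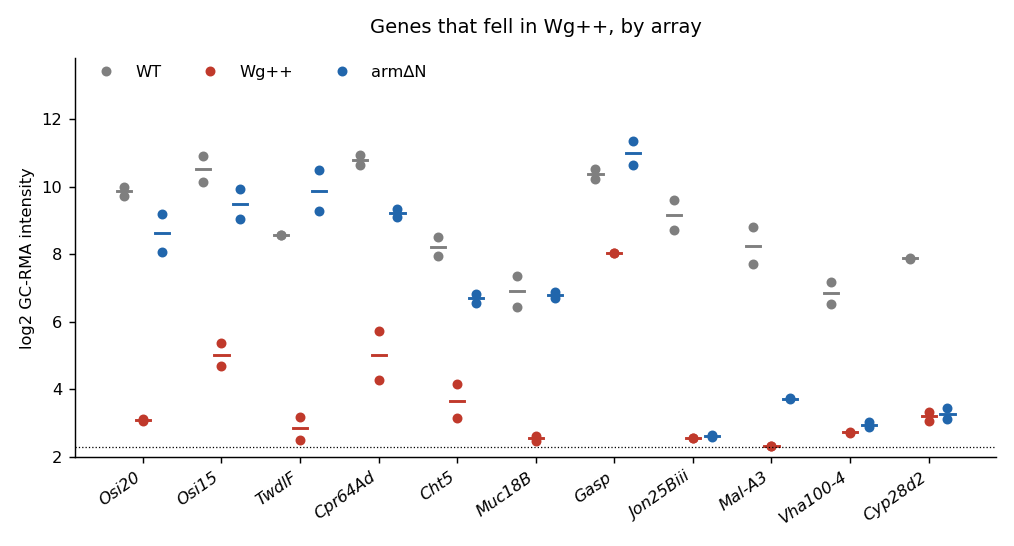
Log2 GC-RMA intensity on each of the 2 arrays of WT, Wg++ and arm∆N for 11 genes that fell in Wg++ (points for arrays, bars for means, dotted line at the lowest value, 2.289). arm∆N arrays stand apart from Wg++ for the cuticle genes on the left and close to Wg++ for Jon25Biii, Vha100-4 and Cyp28d2 on the right.

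Several of the lowered genes adjoin each other, which was noticed after their values were seen. The longest such run is on arm 3L, where 10 neighbouring tested genes from CG13069 to CG13046 were all lower, by 1.40 to 5.17 with a median of -3.80. CG13049 measured 4.22 and 5.77 in Wg++ against 9.42 and 10.92 in WT, and CG13069 measured 4.28 and 5.86 against 9.73 and 10.17. Next to the run on either side, l(3)72Dp rose by 1.61 (SE 0.20) and CG13045 differed by -0.05 (SE 0.32). The run depends on single arrays: without WT replicate 2 or Wg++ replicate 1, CG34248, CG13048 and CG13046 lost their calls, and without Wg++ replicate 2 CG34248 and CG13048 did, so that the longest unbroken stretch was 4 genes in each case. CG13046 was also not called with cyclic loess (adjusted p = 0.119), nor in a fit of the 4 arrays alone. A second run on 3L holds 7 lower genes from CG32447 to CG14573, of which CG14568 measured 4.93 and 5.18 against 9.59 and 9.71, and all 7 were called lower in each alternative run. Another, on 2R, holds 5 lower genes, Cyp4e1 and the maltase genes Mal-A1 to Mal-A4, of which 3 were called without WT replicate 1 and 4 without Wg++ replicate 1. No name or role beyond the gene identifier is annotated here for the genes of the longest run.

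**Figure D4:**
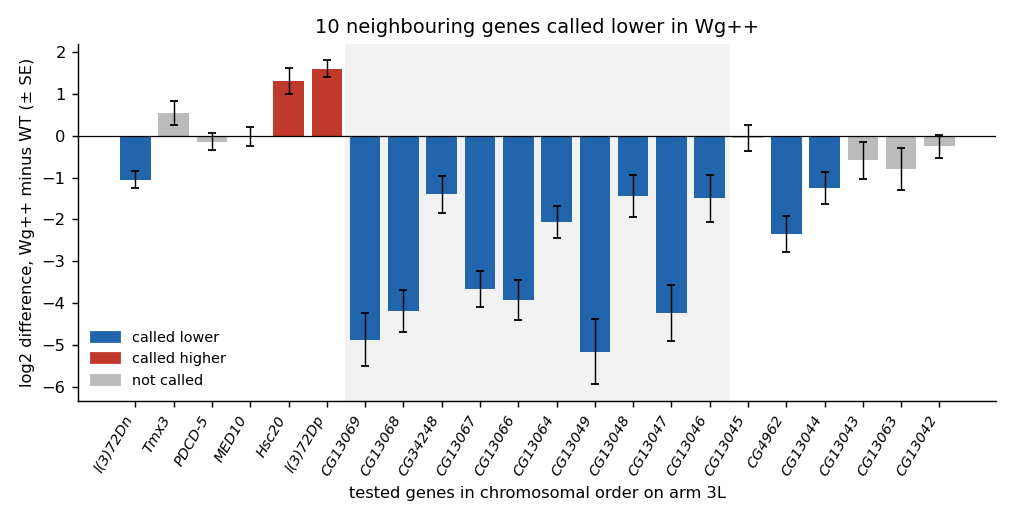
Log2 difference, Wg++ minus WT, with its SE, for the 10 neighbouring genes on arm 3L that were called lower (shaded) and the 6 tested genes on either side, in chromosomal order. Differences inside the run reach from -5.17 to -1.40, whereas the flanking genes include called rises, called falls and genes not called.

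Denticles, the hooks that the larval epidermis forms where Wg signalling is low, are built by genes under the transcription factor Shavenbaby (ovo). Of 19 such genes tested, 8 were lower and 1 higher, with a median of -1.0. dyl, a zona pellucida domain protein that shapes the apical matrix of the denticle, measured 4.59 and 4.04 in Wg++ and 7.81 and 7.48 in WT, a fall of 3.33 (SE 0.43, adjusted p = 0.000745). neo, a relative of dyl, fell by 2.11 (SE 0.47, adjusted p = 0.00628), and CG31559 and CG16798 by 2.78 and 1.74. sn, the fly fascin that bundles actin in the denticle, rose by 0.86 (SE 0.24, adjusted p = 0.0181), and this call was lost without WT replicate 1. ovo differed by -0.34 (SE 0.34, adjusted p = 0.47). WT replicate 2 exceeded WT replicate 1 for CG31559, CG16798 and neo, with a summed intensity of the list of 5336 against 2802, while the Wg++ arrays stood at 2044 and 2467, and without WT replicate 2 the lower genes numbered 5 and the median was -0.35, against 12 and -2.0 without WT replicate 1.

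Other genes of a differentiated epidermis and tracheal system were lower as well. Of 23 tracheal genes, 12 were lower and none higher (median -0.69, and -1.08 without WT replicate 1). salm and rib, transcription factor genes of the tracheal primordia, fell by 1.26 (SE 0.24, adjusted p = 0.00311) and 1.10 (SE 0.20, adjusted p = 0.00279), and conv, a matrix protein of the tracheal lumen, by 1.27 (SE 0.20, adjusted p = 0.00159). Of 25 septate junction genes, which seal epithelia, 10 were lower and 1 higher (median -0.60). Gli, Nrx-IV, bou and kune fell by 1.16, 1.08, 1.21 and 1.05, with SE of 0.18 to 0.22. Without WT replicate 2 or Wg++ replicate 1 the lower septate genes numbered 6.

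Ecdysone, the steroid that times late embryonic cuticle formation, has its own responsive genes. Of 21 tested, 5 were lower (23.8%) and 1 higher (4.76%), with a median of -0.05. The lower share was near the 22.0% of all genes. ImpL1 fell from 8.52 and 9.62 to 7.06 and 7.02 (SE 0.41, adjusted p = 0.00394), and ImpE1 by 2.13, although the other probesets of ImpE1 gave smaller differences. ftz-f1, a nuclear receptor gene that is also supplied by the mother, rose by 1.48 (SE 0.28, adjusted p = 0.003). The lower count was 3 without WT replicate 2 and 2 without Wg++ replicate 1.

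Digestive enzymes of the midgut that WT naïve embryos expressed were near the lowest value in Wg++ for many genes. Of 35 tested, 18 were lower and 1 higher (median -0.79), and 23 of the 35 had a Wg++ mean under 3 against 7 in WT. Jon25Biii, a Jonah serine protease, measured 2.57 and 2.57 in Wg++ and 9.62 and 8.71 in WT, at least 6.59 lower (SE 0.53, adjusted p = 6.58e-05). lambdaTry, a trypsin gene, lay at 2.53 and 2.39 against 6.76 and 6.07 (3.95 lower or more, SE 0.28, adjusted p = 4.89e-05), and Jon25Bi at 2.89 and 2.69 against 6.68 and 6.12. The maltase genes Mal-A1, Mal-A2, Mal-A3 and Mal-A4 were all lower, with WT replicate 1 above WT replicate 2 for each. Mal-B2, a maltase of another cluster, rose by 1.03 (SE 0.29, adjusted p = 0.0187), and the proteases yip7 and Jon65Aiv were present at similar levels in both, at 8.31 and 8.02 against 8.65 and 8.11 for yip7. The 2 WT arrays differed in their summed intensity, 4358 and 2298, against 1855 and 1419 in Wg++, and without WT replicate 1 the lower enzymes numbered 8 and without Wg++ replicate 1, 9. The median was -0.46 without WT replicate 1 and -1.41 without WT replicate 2.

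Regulators and other genes of the endoderm fell less. Of 20, 7 were lower and 1 higher (median -0.44). Vha100-4, a proton pump subunit, measured 2.72 and 2.73 against 7.18 and 6.52 (at least 4.13 lower, SE 0.45, adjusted p = 0.00037). The GATA factor genes GATAe and grn fell by 1.37 (SE 0.31, adjusted p = 0.00721) and 1.30 (SE 0.17, adjusted p = 0.000831), and GATAe by 0.91 without WT replicate 2. The lower count was 4 in a fit of the 4 arrays alone. The acyl-CoA binding protein genes Acbp5 and Acbp4, among the largest falls, went from 9.86 and 8.25 to 2.84 and 2.87 and from 10.18 and 9.73 to 5.52 and 3.94.

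Detoxifying enzymes included called genes in both directions. Of 62 cytochrome P450 genes, 6 were higher (9.68%) and 21 lower (33.9%), with a median of -0.46. Of 34 glutathione transferase genes 6 were higher and 6 lower (17.6% each, median -0.1). The shares of the transferases were near the 18.8% and 22.0% of all genes. Cyp28d2 measured 3.07 and 3.34 in Wg++ against 7.86 and 7.89 in WT, a fall of 4.67 (SE 0.37, adjusted p = 6.58e-05), and Cyp4d1 fell by 2.87 (SE 0.36, adjusted p = 0.000666). Against these, Cyp6a17 stood at 5.62 and 5.24 in Wg++ and at 2.38 and 2.30 in WT, at least 3.09 higher (SE 0.35, adjusted p = 0.000483). Cyp6d4 rose by 2.00 (SE 0.36, adjusted p = 0.00241), GstD9 by 1.15 (SE 0.23), and GstE10 fell by 2.26 (SE 0.34). The lower P450 genes numbered 12 without WT replicate 1 and 10 without Wg++ replicate 1, and the higher transferases 3 in a fit of the 4 arrays alone, 1 without WT replicate 2 and 2 without Wg++ replicate 1.

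Transcripts that the mother loads into the egg were higher in Wg++. Of 31 tested, 18 were higher and 1 lower, with a median of 1.70, and without any 1 of the 4 arrays 14 to 18 were higher. smg, which encodes Smaug, an RNA-binding protein that clears maternal messages, measured 11.60 and 11.52 in Wg++ and 9.72 and 9.42 in WT, a rise of 1.99 (SE 0.33, adjusted p = 0.00181). plu, which the early nuclear cycles need, measured 8.88 and 9.12 against 6.82 and 6.09 (2.55, SE 0.40, adjusted p = 0.00153), and twe, a Cdc25 phosphatase, 8.34 and 8.06 against 6.14 and 5.60 (2.33, SE 0.45, adjusted p = 0.00332). bcd, mutant in the mothers of both genotypes, measured 7.68 and 8.17 against 2.71 and 4.68, and the WT arrays lay further apart than the 2 Wg++ arrays. Tl, the maternal Toll receptor, rose by 1.66, but its other probeset differed by 0.08. nanos measured 9.09 and 7.78 against 7.38 and 6.44 and dhd 12.11 and 9.77 against 9.45 and 7.23, with replicate 1 above replicate 2 in both genotypes and no call. tsl, the third mutant gene, which acts in the ovary, fell by 1.77 (SE 0.40, adjusted p = 0.00699). tud, a germ plasm gene, fell by 0.85. The summed intensity of the maternal list was 23990 and 18670 in Wg++ and 7149 and 6379 in WT. Maternal messages decline with age and cuticle genes rise with it. Here the maternal list lay higher in Wg++ and the cuticle lists above mostly lower. Whether the age of the embryos had a part in either result was not tested.

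Most genes that the zygote switches on early were not called. Of 21 genes of cellularisation and early zygotic patterning, 2 were higher and 4 lower (median -0.45). Ance fell from 9.80 and 9.96 to 7.84 and 8.12 (SE 0.23, adjusted p = 0.000644), and snk rose from 3.29 and 3.16 to 4.65 and 4.67 (SE 0.19, adjusted p = 0.000915). Without WT replicate 2, 1 was higher and 1 lower (median -0.05), and without Wg++ replicate 1 the counts were again 1 and 1.

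Of the genes of cell division, those of mitosis were often higher in Wg++ and those of DNA replication mostly not called. Of 42 mitosis genes, 20 were higher and none lower (median 0.96), with a summed intensity of 36040 to 37310 against 17090 to 17140. thr, the separase that cuts sister chromatids apart, measured 9.51 and 9.78 in Wg++ and 7.47 and 7.33 in WT, a rise of 2.24 (SE 0.30, adjusted p = 0.000897), and its partner pim, the securin, 10.90 and 10.87 against 9.08 and 8.92, a rise of 1.89 (SE 0.33, adjusted p = 0.00226). tum, a regulator of cytokinesis, rose by 1.88 (SE 0.32), glu, a condensin subunit, by 1.74 (SE 0.35) and CycB3, a mitotic cyclin, by 1.70 (SE 0.35). Of 37 DNA replication genes, 6 were higher, 16.2% against the 18.8% of all genes, and none lower (median 0.43). The higher count was 3 without WT replicate 2 (median 0.12) or Wg++ replicate 1. dup, which licenses origins, rose by 1.96 (SE 0.30, adjusted p = 0.00137) and the helicase gene Mcm6 by 1.18 (SE 0.26, adjusted p = 0.00629). PCNA, the sliding clamp of the fork, measured 9.94 and 9.62 against 9.85 and 9.51, and Mcm2 differed by -0.03, neither of them called. Messages of many of these genes are also loaded maternally, and the 2 sources cannot be told apart here.

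The ribosomes of the mitochondrion and of the cytosol differed. Of 69 mitochondrial ribosomal protein genes, 50 were lower and 1 higher, 72.5% against the 22.0% of all genes called lower, with a median of -0.99. mRpL20 measured 6.03 and 6.46 in Wg++ against 8.08 and 8.03 in WT, a fall of 1.81 (SE 0.25, adjusted p = 0.000968), and mRpS14 and mRpL43 fell by 1.59 (SE 0.22) and 1.5 (SE 0.20). The gene that rose was mRpS5, by 1.61 (SE 0.39, adjusted p = 0.00903), while mRpS7 measured 9.47 and 9.42 against 9.66 and 9.38 and was not called. The count of lower genes ranged from 39 to 51 over the alternatives run. Of 38 cytosolic ribosomal protein genes, limma called none in either direction, and 1 had an unadjusted p under 0.05, with a median of 0.01, while 2 were called lower without WT replicate 2. Most of the cytosolic genes lie high in the intensity range, where arrays can respond less to a change in RNA. Whether this limited the differences measured here was not tested. The 52 cytosolic genes without a probeset of their own were not analysed here.

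**Figure D5:**
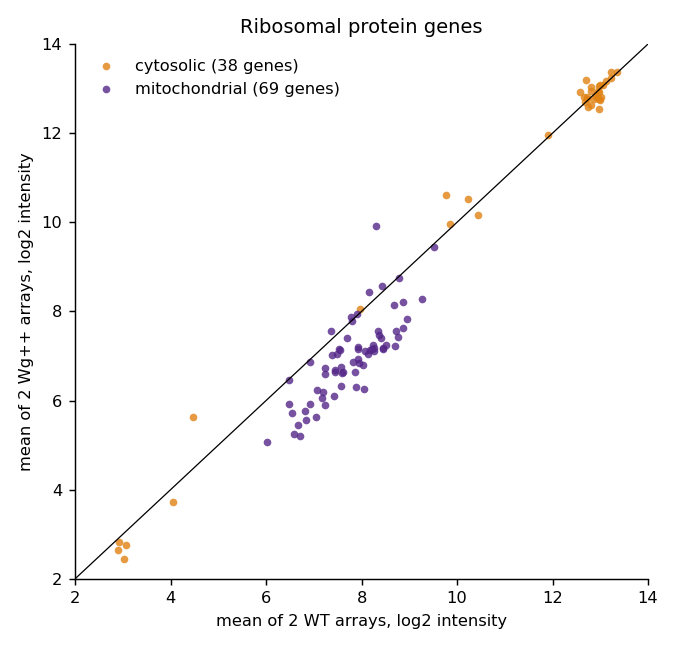
Mean log2 intensity of the 2 Wg++ arrays against that of the 2 WT arrays for 38 cytosolic and 69 mitochondrial ribosomal protein genes, with the line of equal values. Mitochondrial genes lie below the line with few exceptions, mRpS5 the furthest above it, and cytosolic genes lie along the line.

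Of 39 genes that build ribosomes, 10 were higher (25.6%) and 8 lower (20.5%), with a median of -0.03. These shares were not far from the 18.8% and 22.0% of all genes. Rrp6, an exosome nuclease, measured 8.21 and 8.34 against 6.50 and 6.56, a rise of 1.75 (SE 0.29, adjusted p = 0.00186), and the nucleolar protein genes Surf6 and mbm rose by 1.66 (SE 0.29) and 1.72 (SE 0.34). Polr1A, the large subunit of RNA polymerase I, measured 7.04 and 7.30 against 8.50 and 8.26, a fall of 1.21 (SE 0.19, adjusted p = 0.00155). Without WT replicate 2 or Wg++ replicate 2, 6 were higher.

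Antimicrobial peptides and their relatives were higher in Wg++ than in WT. Of 24 immune genes, 12 were higher and 1 lower (median 0.66), and 7 of the 24 had a WT mean under 3. Drs, the antifungal peptide Drosomycin, measured 9.47 and 8.82 in Wg++ and 5.34 and 5.40 in WT, a rise of 3.77 (SE 1.0, adjusted p = 0.0141). The Bomanin BomT2, of a peptide family that Toll signalling induces, stood at 6.37 and 5.92 against 2.67 and 2.32, at least 3.65 higher (SE 0.56, adjusted p = 0.00142), and BomS5 at 9.58 and 9.30 against 6.24 and 5.80 (3.42, SE 0.72, adjusted p = 0.00493). A run of 7 higher genes on 2R, from CG18536 to BomS6, holds 6 Bomanins, with rises of 0.88 to 3.65. Leaving out any of the 4 arrays breaks this run: BomS4 lost its call each time (adjusted p 0.116 to 0.208), BomBc2 without WT replicate 1, BomS6 without WT replicate 2, and both of these and CG18536 (0.57) without Wg++ replicate 1, where 3 genes stayed called. cact, the inhibitor of Toll signalling, rose by 1.49 (SE 0.27), though its other probeset differed by -0.04. Drsl5, a relative of Drs, fell from 9.09 and 8.85 to 4.57 and 6.70 (SE 0.57, adjusted p = 0.00208), and Mtk, an antifungal peptide gene, and Rel, the transcription factor of the Imd pathway, differed by 0.55 and 0.57 and were not called. Of 21 wound and JNK response genes, 5 were higher (23.8%) and 2 lower (9.52%), with a median of 0.07. The higher share was not far from the 18.8% of all genes. Pvf1, a ligand for a growth factor receptor, rose by 1.15 (SE 0.18, adjusted p = 0.00147) and the kinase gene msn by 1.31 (SE 0.29), whereas puc, the JNK phosphatase, measured 8.01 and 7.87 against 7.78 and 7.70 and was not called. Without WT replicate 1 the higher wound genes numbered 2.

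Marker genes of other cell types that whole embryos can hold were lower in Wg++ or not called, apart from 1 neuroblast gene that was higher. Not every list exceeded the 22.0% of all genes called lower. Of 19 haemocyte genes 7 were lower and none higher (median -0.62). PPO1 and PPO2, the prophenoloxidases of crystal cells, fell by 3.49 (SE 0.46, adjusted p = 0.0008) and 2.89 (SE 0.45, adjusted p = 0.00153), and LanA, a laminin chain, by 1.40 (SE 0.27, adjusted p = 0.00313), while Col4a1, collagen IV, measured 11.34 and 11.57 in Wg++ and 10.79 and 11.63 in WT. Of 26 muscle genes 11 were lower and none higher (median -0.65), with a summed intensity of 19950 to 20420 in Wg++ and 31760 to 38700 in WT. Act87E, a muscle actin, fell by 1.09 (SE 0.28, adjusted p = 0.0117), and Mlc1, a myosin light chain, measured 12.04 and 11.95 against 12.42 and 12.65 and was not called. Muscle genes were thus among the brighter probesets in embryos that do not gastrulate by the account of the study. The lower muscle genes numbered 4 without WT replicate 2 or Wg++ replicate 1 and 6 with cyclic loess, with no filter or at an FDR under 5%.

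Of 24 neuroblast and proneural genes 10 were lower and 1 higher (median -0.64). gcm and repo, of the glial fate, fell by 1.54 (SE 0.23, adjusted p = 0.00137) and 1.72 (SE 0.37, adjusted p = 0.0056), and pros, a factor of neural precursors, by 1.12 (SE 0.30, adjusted p = 0.0144). Of 27 neuron genes 3 were lower, 11.1% against the 22.0% of all genes, and none higher (median -0.24). elav, which marks neurons, was 1 of the 3 and fell by 1.31 (SE 0.33, adjusted p = 0.0115). Without Wg++ replicate 1 the lower neuroblast genes numbered 3 and without WT replicate 2, 4, and pros and elav lost their calls without the former. The lower neuron genes numbered 1 without WT replicate 2, and limma called none without Wg++ replicate 1. Of 15 salivary gland genes 7 were lower, PH4alphaSG1 by at least 2.42 (SE 0.25, adjusted p = 0.000275). Of 12 mesoderm genes 5 were lower, eya by 0.91 (SE 0.22), with 2 lower without Wg++ replicate 1 and 3 with cyclic loess. Of 7 fat body genes 2 were lower (28.6%), apolpp, the lipophorin precursor, by 1.47 (SE 0.26, adjusted p = 0.00243). The lower count was 1 without Wg++ replicate 1 or with cyclic loess. Of 4 eggshell genes of the follicle cells that passed the filter 1 was lower, pip, and 17 did not pass it, and pip lost its call without Wg++ replicate 1. The part of these cell types in the other results was not tested.

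Gap, pair-rule and Hox genes that were called fell, whereas those of adhesion and apoptosis went both ways. Of gap and pair-rule genes 27.8% were lower, and of Hox genes and cofactors 37.5%. Of adhesion genes 26.3% were higher and 21.1% lower, and of apoptosis genes 30.8% and 23.1%. These lists are short, and most of these shares were not far from the 18.8% and 22.0% of all genes. Of 18 gap and pair-rule genes 5 were lower and none higher (median -0.50), and 3 were lower without Wg++ replicate 1, with no filter on low values and at an FDR under 5%. ems, a head gap gene, measured 5.06 and 5.36 against 6.67 and 7.0, a fall of 1.63 (SE 0.26, adjusted p = 0.00174), and the related receptor-like factors knrl and kni fell by 1.61 (SE 0.19) and 1.08 (SE 0.29). Of 8 Hox genes and cofactors 3 were lower, Scr by 0.91 (SE 0.24, adjusted p = 0.0127), and cad, at 8.78 and 8.55 against 8.54 and 7.66, was not called. The lower Hox genes numbered 1 without WT replicate 2 or Wg++ replicate 1 and 6 without WT replicate 1. Of 19 polarity and adhesion genes 5 were higher and 4 lower. shg, the E-cadherin that Armadillo binds at junctions, measured 6.88 and 7.0 in Wg++ and 2.84 and 5.39 in WT, and its rise of 2.83 (SE 0.78, adjusted p = 0.0175) was 1.55 without WT replicate 1, where the call was lost. cno, a linker of junctions to actin, rose by 2.22 (SE 0.37), but its other probeset differed by 0.00. fj, a Golgi kinase of the planar polarity system, fell from 7.18 and 7.07 to 5.26 and 5.49 (SE 0.25, adjusted p = 0.00111). The higher count was 2 without WT replicate 1 and 3 without Wg++ replicate 1 or in a fit of the 4 arrays alone, and the lower count 1 without WT replicate 2 or Wg++ replicate 1 and 2 in the fit of 4 arrays. Of 13 apoptosis genes 4 were higher, the initiator caspase gene Dronc by 1.74 (SE 0.34, adjusted p = 0.0038), and 3 were lower. The higher count was 2 without WT replicate 2 or Wg++ replicate 1 and 1 without Wg++ replicate 2, and the lower count 1 without WT replicate 2 or in the fit of 4 arrays and 0 without Wg++ replicate 1.

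The direct contrast with arm∆N shows where expression of the ligand and of stabilised Armadillo differ. Arrays of Wg++ and arm∆N correlated at 0.893 to 0.921 and those of arm∆N and WT at 0.903 to 0.932. In this contrast 1658 genes were higher in Wg++, which is 18.7% of those tested, and 1627 lower, which is 18.4%, or 37.1% together. Without Wg++ replicate 1 these counts were 968 and 700. The contrast of arm∆N with WT called 703 genes higher (7.93%) and 1031 lower (11.6%), 19.6% together, and since it shares the WT arrays with Wg++ against WT, values are given side by side without a test of their likeness. wg showed the largest measured rise over arm∆N, 3.54 (SE 0.29, adjusted p = 0.000458), with arm∆N arrays at 6.61 and 6.50, while rises of genes near the lowest value in arm∆N are lower bounds and have no rank.

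Several genes that rose from low levels in Wg++ were also high in arm∆N, though Cyp6a17, described below, was not. Mco4 measured 8.10 and 9.17 in arm∆N, and Wg++ differed from it by -0.56 (SE 0.27, adjusted p = 0.133). CG4367, CG13460 and CG10140 differed between the 2 genotypes by -0.61, 0.79 and -0.36, with SE of 0.41, 0.59 and 0.25, and were not called. obst-G measured 7.83 and 8.63 in arm∆N, so that Wg++ lay 1.73 below it (SE 0.28, adjusted p = 0.00388), and Mco1 7.96 and 8.72, with Wg++ 1.14 below (SE 0.31, adjusted p = 0.0189). Of the 41 chitin-binding genes 23 were lower in Wg++ than in arm∆N (median -1.04), and limma called none higher, 1 of them with an unadjusted p under 0.05. Notum and fz3 followed the same order, Notum at 6.72 and 6.60 in arm∆N, 2.00 above Wg++ (SE 0.24, adjusted p = 0.00193), and fz3 at 7.57 and 7.77, 1.41 above Wg++ (SE 0.31, adjusted p = 0.00821). Of the 23 Wg targets 8 were lower in Wg++ than in arm∆N, with a median of -0.43. The 1 that was higher was wg itself, whose rise follows from the genotype. The lower count was 6 with cyclic loess and 5 with no filter on low values. The median was -0.35 without Wg++ replicate 1 and -0.4 without arm∆N replicate 2.

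Several midgut enzymes that fell in Wg++ were also low in arm∆N. Jon25Biii measured 2.65 and 2.60 there, lambdaTry 2.86 and 2.84, Vha100-4 3.02 and 2.88 and Cyp28d2 3.11 and 3.44, and none of these differed by call between the 2 genotypes. As most of these means are near the lowest value, the arrays set no order between them. Mal-A3 measured 3.73 and 3.72 in arm∆N, at least 1.41 above Wg++ (SE 0.40, adjusted p = 0.0224). Of the 35 enzymes 1 was higher in Wg++ than in arm∆N and 6 lower, and leaving out 1 array gave 1 to 4 lower. Mitochondrial ribosomal protein genes were low in both, with 44 of 69 lower in arm∆N than in WT (median -0.77) and 2 higher and 3 lower in Wg++ than in arm∆N (median -0.14), against 5 higher and 0 lower without arm∆N replicate 1 and 0 higher and 13 lower without arm∆N replicate 2.

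Cuticle genes set the 2 genotypes apart. Osi20 measured 9.20 and 8.06 in arm∆N, and Wg++ lay 5.54 below (SE 0.52, adjusted p = 0.000532). Of 13 Osiris genes 10 were lower in Wg++ than in arm∆N (median -2.55), of 21 Tweedle genes 11 (median -1.67), of 58 RR genes 24 (median -0.89) and of 29 chitin synthesis genes 20 (median -1.21). Leaving out 1 array gave 7 to 9, 7 to 11, 12 to 23 and 10 to 16, the lowest of the last 2 without Wg++ replicate 1. TwdlF, at 10.49 and 9.28 in arm∆N against 2.49 and 3.19 in Wg++, showed the largest measured difference, 7.04 or more (SE 0.57, adjusted p = 0.000458). Maternal and mitotic genes differed the other way, with 16 of 31 maternal transcripts (median 1.40), 27 of 42 mitosis genes (median 1.0), 11 of 37 replication genes (median 0.89) and 18 of 39 ribosome biogenesis genes (median 0.57) higher in Wg++ and limma called none of these lists' members lower (2 maternal transcripts had an unadjusted p under 0.05 in that direction and no member of the other 3 lists). Leaving out 1 array gave 9 to 15, 14 to 20, 3 to 11 and 12 to 15 higher, with the lowest count without Wg++ replicate 1 for the mitosis, replication and ribosome biogenesis lists, shared in the last with arm∆N replicate 1, and without arm∆N replicate 1 for the maternal list. twe, for example, measured 6.53 and 7.01 in arm∆N and dup 9.12 and 9.69, below both Wg++ arrays by 1.43 (SE 0.45, adjusted p = 0.0342) and 1.73 (SE 0.30, adjusted p = 0.00413) on average. The summed intensity of the maternal list was 10560 and 8640 in arm∆N, between those of WT and Wg++, and its part in the differences of the cuticle genes was not tested.

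Immune, wound and neuron genes that differed were mostly lower in Wg++ than in arm∆N. Of 24 immune genes 10 were lower and 2 higher (median -1.05), and of 21 wound genes 10 were lower and 2 higher. Leaving out 1 array gave 3 to 5 lower immune genes and 3 to 11 lower wound genes. Bbd (Bombardier), which the Bomanins need and which was among the largest rises over WT, measured 6.75 and 6.45 in Wg++, 2.93 and 2.86 in WT and 9.24 and 9.05 in arm∆N, and puc, not called against WT, lay 0.79 below arm∆N (SE 0.21, adjusted p = 0.0171). Of 27 neuron genes 12 were lower in Wg++ than in arm∆N (median -0.98), among them Gad1, the enzyme that makes GABA, at 9.60 and 9.68 in arm∆N against 7.78 and 8.07 (-1.71, SE 0.45, adjusted p = 0.0167), and leaving out 1 array gave 4 to 8 lower. Neuroblast and proneural genes did not follow, with 3 of 24 lower and 1 higher (median 0.07). Cyp6a17, in contrast, lay at 2.31 and 2.31 in arm∆N, as in WT, and was at least 3.12 higher in Wg++ (SE 0.35, adjusted p = 0.0015).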

How the data were processed

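The authors deposited log2 intensities of 16 Affymetrix Drosophila 2 arrays, normalised by them with GC-RMA, which corrects background by probe GC content; the version is not given in the sources used here. The lowest value, 2.289, occurs on all 16 arrays. Arrays carry no read depth, and their number limits the precision. Samples were grouped by the genotype label, and all 16 arrays entered the fit. Of 18952 probesets, 402 map to several genes and 4903 to none in the platform annotation. Current names and chromosomal order came from the RefSeq gene table of Release 6. Following the methods of the study, each gene was represented by its probeset of widest interquartile range, genes above 2.5 on at least 2 arrays were tested, and limma 3.58.1 in R 4.3.3 was fitted with 1 coefficient per genotype (8 residual degrees of freedom, 2.72 from the prior). P-values are moderated and two-sided, with Benjamini-Hochberg adjustment over all 8863 genes; n is 2 arrays per genotype throughout. The fit was tested on simulated data. Of 100 genes changed by a log2 difference of 1, 40 were called, of 100 changed by 2, 88, and of 8663 unchanged genes, 11. In the simulation all genotypes shared the WT means, only these changed genes differed in Wg++, and the noise was normal and independent between arrays. The real contrast called 40.8% of genes, so these counts do not give its sensitivity or its rate of false calls. The 43 gene lists, the members and the genes named were chosen with earlier results of these data known. Genes named were drawn from the 15 largest called rises and falls whose arrays do not overlap, primer genes, mutated genes and known targets, up to 6 called members per list of lowest adjusted p, up to 2 of the opposite direction and up to 3 bright members not called, and the 8 largest differences from arm∆N each way. Runs of at least 5 neighbours were chosen after their values were seen. A list is described by counts and medians without a test. Primer sequences come from the supplementary primer list; those on arm 2R are not printed. Promoter sequence was not analysed here.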

Additional observations from a re-analysis of the deposited data

How the results depend on the processing

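Against 1666 genes higher and 1954 lower in Wg++ than WT, the counts were 1499 and 1729 with no filter on low values, 1869 and 1625 with cyclic loess scaling, 1595 and 1763 in a fit of the 4 arrays alone and 1448 and 1667 at an FDR under 5%. Cyclic loess moved the median of all genes from -0.11 to -0.01 and the share of calls that are higher from 46.0% to 53.5%. Leaving out 1 array gave 1154 to 1453 higher and 1226 to 1783 lower genes against WT, and 968 to 1335 higher and 700 to 1296 lower genes against arm∆N, where 1658 and 1627 were called. The lowest of each came without Wg++ replicate 1. Of 315 named genes with a call against WT, 293 kept it with no filter, 298 with cyclic loess, 313 with the probeset of highest mean, 278 in the fit of 4 arrays and 239 to 283 without 1 array. With the probeset of highest mean, lqfR changed sign, from 2.58 to -0.53, and Hr39, not called at 0.20, stood at -0.89, each by construction another probeset of the gene. The replicate numbers of the labels pair no animals, and the deviations of replicate 1 from its genotype mean correlated at 0.348 between WT and Wg++ and from -0.528 to 0.675 over all pairs of genotypes. With the replicate number as a block, 1888 genes were higher and 2200 lower, and all 3620 called genes kept their calls. With the block the DNA replication genes called higher went from 6 to 10 against WT and from 11 to 31 against arm∆N, and the Hox genes called lower against WT from 3 to 5. Differences of genes near the lowest value are limited by the signal over background.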
